A study of Mus musculus with 44 samples.

Results

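The replication-dependent histone genes encode the bulk of the histones that package newly made DNA, and their start-site windows were examined here in ChIP-seq of HPC7 cells, a mouse blood progenitor line that grows in stem cell factor. A window was included if its Entrez gene carried a mouse symbol, old or renamed, of the Hist1, Hist2, Hist3 or Hist4 clusters, a rule that uses gene names alone. This gave 69 of the 27095 windows in the count table. They comprised 6 H1, 19 H2A, 19 H2B, 12 H3 and 13 H4 genes, of which 55 belonged to Hist1 (chromosome 13), 10 to Hist2 (chromosome 3), 3 to Hist3 (chromosome 11) and 1 to Hist4 (chromosome 6). All cells had been transduced with an MSCV-IRES-GFP retrovirus and sorted for GFP after 1 week. The virus carried wild-type Snai1 (WT), a Snai1 whose phenylalanine at residue 5 is replaced by alanine so that it binds the demethylase Lsd1 poorly (MUT), or no insert (empty vector, EV). The constructs are expressed from the virus on top of whatever Snai1 the cells make themselves, so WT and MUT are overexpression models. H3K4me2 and H3K4me1 were measured in 3 libraries per construct and a rabbit IgG control in 2 libraries of WT cells, and Snai1 ChIP is given as 1 peak list per construct.

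Replication-dependent histone genes are short, have no introns and lie in clusters, many as divergent H2A and H2B pairs that share one promoter region. They are transcribed in S phase, when the coactivator NPAT and class-specific promoter factors act in nuclear histone locus bodies, and their transcripts end in a stem-loop bound by SLBP instead of a poly(A) tail. H2A, H2B, H3 and H4 form the nucleosome core, and H1 binds the linker DNA. H3K4me2 marks active promoters and nearby regulatory DNA, and H3K4me1 is typical of enhancers and of the flanks of promoters. Lsd1 (Kdm1a) removes both marks, and Snai1 is a zinc finger repressor that recruits it and binds E-box DNA.

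The promoters are shown first because they carry the sequence features by which the classes differ, and because Snai1 peaks are set against them further on. RefSeq promoter sequences (GRCm38.p6; 250 bases before to 50 after the start) were available for 62 of the 69 genes. Both strands were searched for CCAAT, the NF-Y box, for TATAAA, for ATTTGCAT, the octamer known from H2B promoters, for GGTCCG, the core of the H4 site bound by HINFP, for AAACACA, the H1 box, and for CACCTG, an E-box of the kind Snail proteins bind. Each word was counted by itself, so a base may serve more than one word, and divergent neighbours whose promoters overlap were each counted. The 5 sequences below are those of H1f3 (older name Hist1h1d), which lies under a peak in both the WT and the MUT Snai1 list, H3c8 (Hist1h3g), the H3 window with the most H3K4me2, H2bc15 (Hist1h2bn), a divergent promoter shared with H2ac15 and covered by a MUT peak, H4f16 (Hist4h4), the histone window with the most H3K4me2 reads per library total, and H2ac1 (Hist1h2aa), a testis histone gene with little H3K4me2. They lie at chr13:23554782-23555081 (plus strand), chr13:23535168-23535467 (plus), chr13:21753826-21754125 (plus), chr6:136804382-136804681 (minus) and chr13:23934187-23934486 (plus), in that order. Capitals mark any of the 6 words on either strand.
H1f3: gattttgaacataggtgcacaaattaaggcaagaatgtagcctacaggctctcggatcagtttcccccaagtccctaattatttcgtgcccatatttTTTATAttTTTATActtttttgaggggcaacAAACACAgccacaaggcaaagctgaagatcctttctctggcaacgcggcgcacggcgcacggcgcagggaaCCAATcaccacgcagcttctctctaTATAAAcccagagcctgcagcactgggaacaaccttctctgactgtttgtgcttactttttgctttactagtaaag
H3c8: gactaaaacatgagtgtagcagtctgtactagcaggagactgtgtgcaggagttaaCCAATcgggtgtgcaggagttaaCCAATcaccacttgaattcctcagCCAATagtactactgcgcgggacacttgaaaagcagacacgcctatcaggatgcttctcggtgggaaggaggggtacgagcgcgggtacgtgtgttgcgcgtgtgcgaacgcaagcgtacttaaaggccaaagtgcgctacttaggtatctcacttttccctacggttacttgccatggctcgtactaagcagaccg
H2bc15: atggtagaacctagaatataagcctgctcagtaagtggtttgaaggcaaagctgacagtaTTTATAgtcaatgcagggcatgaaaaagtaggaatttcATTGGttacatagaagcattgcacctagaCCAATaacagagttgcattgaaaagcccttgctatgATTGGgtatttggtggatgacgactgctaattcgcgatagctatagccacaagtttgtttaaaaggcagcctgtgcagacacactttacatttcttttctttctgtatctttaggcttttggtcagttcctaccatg
H4f16: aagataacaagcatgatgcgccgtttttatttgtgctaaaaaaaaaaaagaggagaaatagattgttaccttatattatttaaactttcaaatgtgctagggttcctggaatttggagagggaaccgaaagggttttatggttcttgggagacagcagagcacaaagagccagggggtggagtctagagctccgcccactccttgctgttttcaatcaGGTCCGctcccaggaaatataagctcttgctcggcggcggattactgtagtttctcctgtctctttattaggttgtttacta
H2ac1: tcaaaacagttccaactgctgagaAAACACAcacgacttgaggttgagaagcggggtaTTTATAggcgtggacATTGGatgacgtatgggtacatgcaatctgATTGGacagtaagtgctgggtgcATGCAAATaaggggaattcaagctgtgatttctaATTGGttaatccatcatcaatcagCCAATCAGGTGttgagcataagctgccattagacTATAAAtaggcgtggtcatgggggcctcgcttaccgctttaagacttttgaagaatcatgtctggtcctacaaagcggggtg

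The classes differed in these words. CCAAT was present in all 6 H1, 18 H2A, 16 H2B and 10 H3 promoters with a sequence, but in 3 of 12 H4 promoters, against 37.9% of all 27025 mouse promoters. GGTCCG was the reverse, in 11 of 12 H4 promoters, 1 of 16 H2B and 1 of 10 H3 promoters and no H1 or H2A promoter, against 8.39% of all promoters. The H1 box stood in 5 of 6 H1 promoters, against 7.14% of all, and the octamer in 7 of 18 H2A and 6 of 16 H2B promoters and in no H1, H3 or H4 promoter, against 1.75% of all. TATAAA stood in 35 of 62 histone promoters, against 14.2% of all. The E-box CACCTG stood in 8 of 62 histone promoters (12.9%), against 20.0% of all promoters, and among the 5 printed it is in H2ac1 alone. A word match describes the letters in these 300 bases and does not locate a bound site.

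The levels depend on how the windows were laid out. The summed IgG count, which reads the window's length and mappability, had a median of 123 reads over 3047 genes of up to 1 kb and of 252 reads over 14791 genes of more than 10 kb. Such counts fit windows that start 5 kb upstream and run at most 5 kb into the gene without passing its end. By this inferred layout most histone windows cover about 5.5 kb, most of it upstream. Levels are therefore given as CPM (counts scaled to the library total, adjusted by TMM within a mark), and between genes per kb of this rebuilt window or over IgG. Of the 62 genes with a known start, 48 had at least 1 other histone gene start inside their window, and up to 4. Reads of overlapping windows were counted in each: among 9 same-strand neighbour pairs whose windows overlap by over 60%, the larger H3K4me2 count was 1.01 to 1.91 times the smaller, with a median of 1.15, against a median of 2.41 in 12 pairs without overlap. The 69 windows are thus not 69 independent measurements, and they form 29 runs of close genes.

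Some divergent partners shared little of their windows. H2ac15 and H2bc15, the closest pair with starts 164 bp apart, shared 21.5% of the window and had 3912 and 7318 H3K4me2 reads over the 9 libraries, but 126 and 136 IgG reads. Other divergent windows overlapped more, up to 100.0% of the smaller for H2ac22 and H2bc22, which had 2502 and 7711 H3K4me2 reads. The 3 pairs with the most unequal H3K4me2 counts were H2bu2 and H2aw of Hist3 (999 and 7878 reads), H1f6 and H4c3 (592 and 3798 reads) and H1f3 and H3c6 (9593 and 2748 reads), none of which overlap, once the unreadable genes named next are set aside. The 3 most equal were H3c13 and H2bc18 (7219 and 7165 reads), H2ac13 and H3c10 (6578 and 6434 reads) and H3c10 and H2bc14 (6434 and 6602 reads), which do.

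A stretch of chromosome 13 could not be read. H2bc23, H2ac23, H4c17, H4c18 and H2ac24 had 1 to 6 IgG reads in both libraries together, where the other 64 histone windows had a median of 127. Their H3K4me2 levels of 0.335 to 2.04 CPM therefore say nothing about the mark. These genes have near-identical copies in the cluster, and counting of reads that map to several places is not given in the sources used here. H2ac18 and H2ac19 of Hist2 are also near-identical, so reads may be split between them, and their levels are uncertain.

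Most histone windows carried H3K4me2. In WT cells, 60 of 67 tested histone windows were higher in H3K4me2 than in IgG and 5 were lower (edgeR quasi-likelihood test, Benjamini-Hochberg adjusted p under 0.05 over all windows). Of the 64 readable windows 59 were higher and 5 lower; the other 3 tested, H2bc23, H4c17 and H4c18, passed the filter on low counts through H3K4me2 and cannot be read. Of all windows 95.2% were called, 44.0% as higher and 51.2% as lower, and at an unadjusted p under 0.05 the share was 95.3%. These directions depend on the scaling: of 26313 windows, TMM gave 11567 higher and 13478 lower, column totals 9488 and 14666, and scaling to silent receptor families 14431 and 126, with 54 and 5 histone windows by column totals and 66 and 0 by the silent families. Their median log2 fold over IgG was 2.41, against -0.94 over all windows and 1.80 over windows with a mean H3K4me2 level of at least 20 CPM. Among other genes of up to 1 kb outside the silent receptor families, whose windows are as short, 320 of 1846 were higher and the median was -2.32. The fold itself moves with the scaling, since the median of all windows lay between -1.92 and 1.64 under the other scalings tried. The histone median stood 3.34 to 3.35 above it under each. Scaling moves all windows nearly alike, so this gap could hardly change. All 12 H3 windows were higher over IgG, as were 5 of 6 H1, 15 of 17 H2A, 16 of 18 H2B and 11 of 11 H4 windows that could be read. H3c8 led with a log2 fold of 3.46 ± 0.21 (SE), followed by the H2A gene H2ac10 at 3.22 ± 0.20, and H3c13 of Hist2 and H2ac8 at 2.87 ± 0.19 and 2.86 ± 0.18, each with an edgeR adjusted p of 2.62e-07. H4c18 came out between them at 3.14 ± 0.70, but rests on 3 IgG reads.

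**Figure D1:**
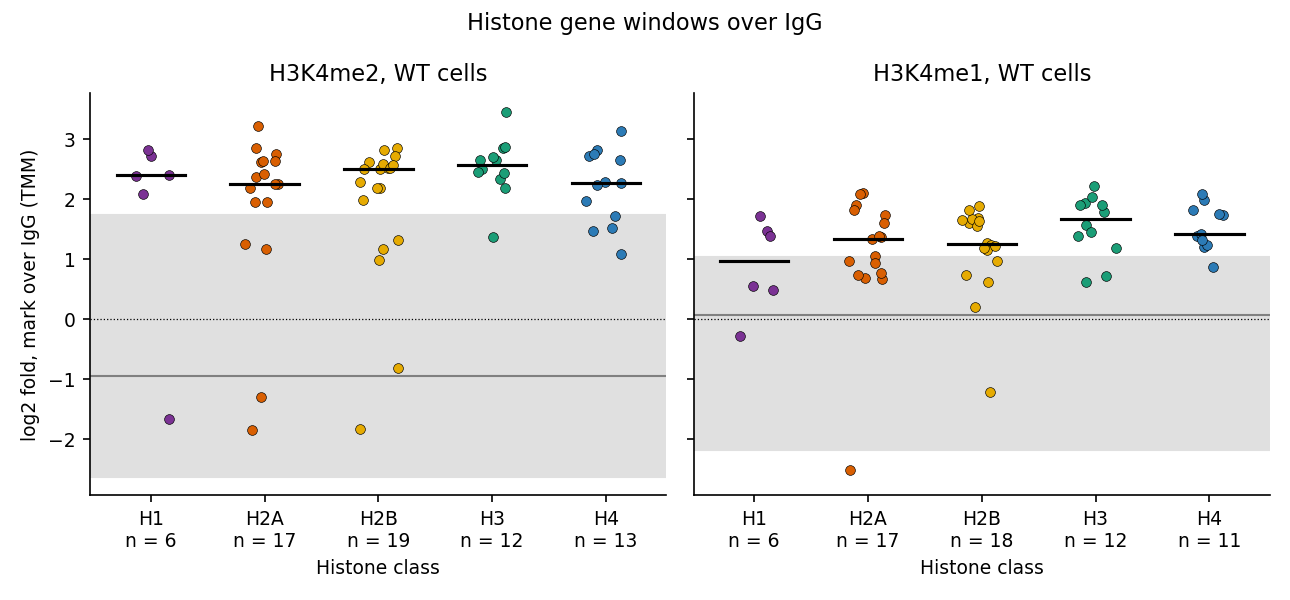
Log2 fold of H3K4me2 (left) and H3K4me1 (right) over IgG in WT cells for each tested histone window, by class; black bars are class medians, the grey line and band the median and quartiles of all windows. For H3K4me2 the class medians lie between 2.25 and 2.58, above the upper quartile of all windows, and 5 windows fall below 0. The points include H2bc23, H4c17 and H4c18, which cannot be read.

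Per kb, the histone windows stood high among all windows. H4f16, the single Hist4 gene, had 25.3 H3K4me2 CPM per kb of its rebuilt window, above 99.9% of windows. By CPM alone it stood above 97.4% of windows. H3c8 had 19.5 CPM per kb. H2ac10 stood above 98.7% of windows per kb, and H2ac6 and H1f1 had 16.5 and 15.6 CPM per kb. Over the 9 libraries of all constructs the levels were 138 ± 9.25 CPM for H4f16, 107 ± 12.3 for H2bc21 of Hist2, 107 ± 10.4 for H3c8, 94.3 ± 12.0 for H2bc4 and 93.6 ± 9.97 for H2ac10 (SD, n = 9), the 5 highest levels. H2bc4 and H2bc21 have longer annotated extents than most, so their levels per kb were lower, at 9.43 and 13.9 CPM per kb. The IgG count of H4f16, 254 reads, was also about that of a long gene. Its counted window may thus be longer than rebuilt, and its level and rank per kb too high. Over IgG its log2 fold was 2.75 ± 0.21. H1f1 (89.5 ± 5.83 CPM) was the highest H1 gene, and H3c6 (26.1 ± 4.22 CPM) and H4c11 (28.4 ± 2.41 CPM) were the lowest readable H3 and H4 genes. The class medians were 12.1 CPM per kb for H1, 7.77 for H2A, 9.43 for H2B, 10.6 for H3 and 9.70 for H4, against 1.24 CPM per kb over all windows. Other marked genes had levels of like size. The median was 9.47 over all histone windows, 8.71 over the histone chaperones and 8.39 over the transcription and processing factors. It was 7.38 over the replication genes and 13.5 over the progenitor markers.

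The silent neighbours inside the Hist1 region had little of the mark. Between 21715711 and 23934913 on chromosome 13, the 36 vomeronasal receptor windows, a silent chemosensory family, had a median of 1.85 H3K4me2 CPM, and 35 of 35 tested were lower than IgG by TMM. Of the other neighbours, 8 were higher, led by C230035I16Rik at 2.91 ± 0.21 and Zfp184, a zinc finger gene, at 1.88 ± 0.16 (log2 over IgG ± SE; edgeR adjusted p of 2.7e-07 or less).

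Few readable histone windows had little H3K4me2, and the testis genes were among them. H1f6 (H1t), H2ac1 and H2bc1, the histones of male germ cells, had 5.35 ± 0.691, 4.31 ± 0.786 and 3.06 ± 0.496 H3K4me2 CPM over the 9 libraries (SD, n = 9). H2bc1 had 3.37, 3.06 and 2.56 CPM in WT, 2.74, 3.70 and 2.39 CPM in MUT and 3.69, 2.65 and 3.36 CPM in EV libraries 1 to 3. The constructs overlapped. Under TMM scaling all of the 3 were lower than IgG in WT cells, at a log2 fold of -1.67 ± 0.24 for H1f6, -1.30 ± 0.27 for H2ac1 and -1.82 ± 0.27 for H2bc1 (SE, edgeR adjusted p of 0.000361 or less), while scaling to silent receptor families put them above IgG at 0.95, 1.28 and 0.78. The promoter of H2ac1, printed above, holds the NF-Y box, the TATA word, the octamer and the H1 box. The other low windows were the pseudogene H2af-ps2 at 5.02 ± 0.642 CPM, which lies apart at chr13:51200084-51203066, H2bu2 of Hist3 at 9.15 ± 1.37 CPM and H4bc24 at 10.3 ± 2.07 CPM. H2af-ps2 and H2bu2 were lower than IgG by TMM, at -1.84 ± 0.24 and -0.82 ± 0.23 (edgeR adjusted p of 5.13e-06 and 0.00452), and higher by the silent scaling, at 0.72 and 1.79. H4bc24 borders the unreadable stretch and had 69 IgG reads.

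H3K4me1 was also above IgG, at a lower fold. Of 64 tested windows, 58 were higher and 2 lower, where 85.9% of all windows were called, 42.7% as higher and 43.2% as lower (86.5% at an unadjusted p under 0.05). Column totals gave 46 higher and 3 lower histone windows and 7241 higher and 12673 lower of all 26166, and silent scaling 63 and 0 histone windows and 16232 and 790 of all. The median log2 fold was 1.39, against 0.06 over all windows. Hist2 windows led, with a median of 1.97 over 10 windows, and H3c13, H2ac19, H2ac18, H4c14 and H3c15 were the 5 highest at 2.03 to 2.22, though H2ac19, H2ac18 and H3c15 share reads. The lower ones were H2af-ps2 at -2.51 ± 0.28 and H2bu2 at -1.22 ± 0.29 (SE, edgeR adjusted p of 6.85e-06 and 0.00158), and with the silent scaling H2bu2 came to 0.91.

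The histone windows took a larger share of H3K4me2 than of H3K4me1 reads. Across all constructs, 48 of 67 tested windows had a higher H3K4me2 than H3K4me1 share of reads and 6 a lower one, or 46 and 6 of the 64 readable windows, where 75.6% of all windows were called, 32.0% as higher and 43.6% as lower (77.2% at an unadjusted p under 0.05). Column totals gave 43 higher and 8 lower histone windows and 7288 and 12977 of all 26008, and silent scaling 59 and 3 histone windows and 12297 and 5887 of all. By TMM the median log2 ratio was 0.62, against -0.28 over all windows and 0.49 over windows of at least 20 H3K4me2 CPM. Over readable windows it was 1.00 for H1, 0.57 for H2A, 0.65 for H2B, 0.48 for H3 and 0.41 for H4. H3c4 and H2ac8 were highest at 1.85 ± 0.16 and 1.84 ± 0.16, then H1f4 at 1.59 ± 0.11, H3c8 at 1.58 ± 0.13 and H2ac7 at 1.53 ± 0.16 (SE, edgeR adjusted p of 7.14e-08 or less), and H2ac7 and H3c4 share most of their reads.

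H3c8 shows the size of this difference. Its H3K4me2 was 102, 125 and 125 CPM in WT, 100, 102 and 103 CPM in MUT and 98.3, 103 and 108 CPM in EV libraries 1 to 3. Its H3K4me1 was 44.6, 41.7 and 42.8 CPM in WT, 49.2, 30.4 and 33.3 CPM in MUT and 54.1, 29.1 and 20.7 CPM in EV libraries. Every H3K4me2 library lay above every H3K4me1 library.

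The testis genes had the opposite balance. H2ac1, H2bc1 and H1f6 had log2 ratios of -1.98 ± 0.15, -1.96 ± 0.15 and -1.78 ± 0.16 (SE, edgeR adjusted p of 1.44e-08 or less). H2ac1 had 3.48 to 4.48 H3K4me2 CPM in WT, 2.97 to 5.77 in MUT and 4.34 to 4.70 in EV libraries, and 17.4 to 23.4 H3K4me1 CPM in WT, 12.8 to 17.8 in MUT and 17.5 to 22.8 in EV libraries, so the marks did not overlap. H4c3, next to H1f6, was also lower at -0.59 ± 0.09 (edgeR adjusted p of 1.69e-05), with 33.4, 36.8 and 38.1 H3K4me2 CPM and 61.0, 61.8 and 60.9 H3K4me1 CPM in WT libraries, and H2ac11 was lower at -0.39 ± 0.12 (edgeR adjusted p of 0.00839). Scaling to silent families turned the sign of these last genes, to 0.04 and 0.22.

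**Figure D2:**
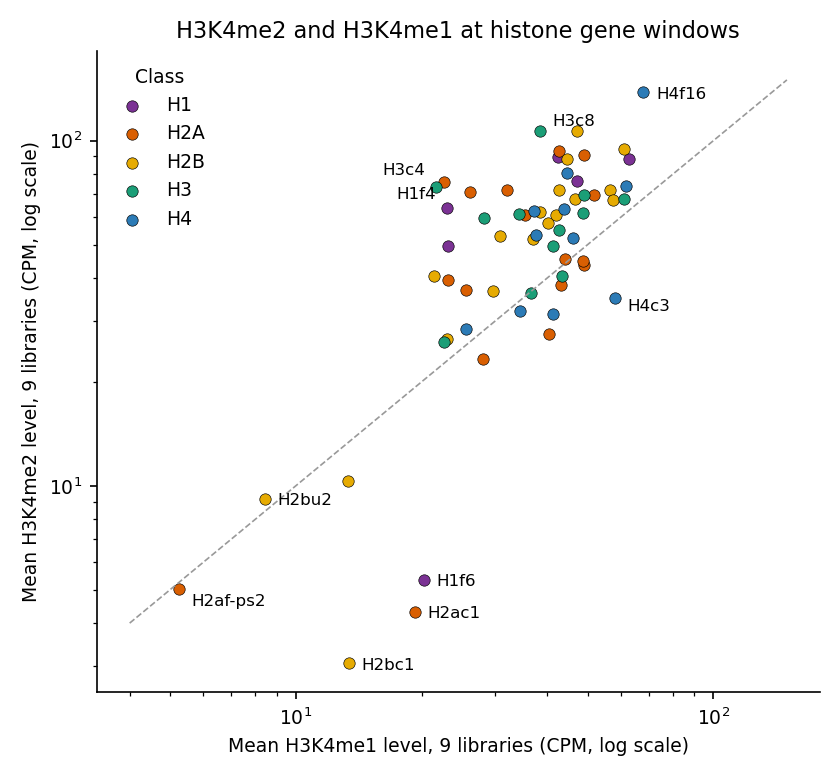
Mean H3K4me2 against mean H3K4me1 level (CPM, log axes) of the 64 readable histone windows, coloured by class, with the dashed line at equal values. H4f16 is highest in both marks, and H1f6, H2ac1 and H2bc1 lie farthest below the line.

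Snai1 peaks reached many histone genes in the list of the mutant protein. With a distance of up to 5 kb from either end of the gene, 49 of 69 histone genes (71.0%) had a MUT peak, against 32.8% of other genes with coordinates, 10 (14.5%) had a WT peak, against 10.2% of other genes, and none had an EV peak, against 0.589%. The 49 genes shared 39 peaks and the 10 genes 4. Genes with H3K4me2 had peaks more often in general: of other genes with at least 20 H3K4me2 CPM, 60.1% had a MUT and 18.8% a WT peak, against 47 of 58 (81.0%) and 9 of 58 (15.5%) histone genes of that level. The MUT list holds 12037 peaks, the WT list 2929 and the EV list 137, each the 1 list of its construct with no replicate check, so the counts of the lists do not measure a difference between the constructs. Fold enrichment and q values are the authors'.

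By class, 6 of 6 H1, 12 of 19 H2A, 13 of 19 H2B, 8 of 12 H3 and 10 of 13 H4 genes had a MUT peak within 5 kb. Summits lay close to the start in some classes. Of genes with a known start, 8 of 12 H4, 3 of 6 H1, 7 of 16 H2B, 5 of 18 H2A and 0 of 10 H3 genes had a MUT summit within 300 bp of it, 23 of 62 in all (37.1%), against 15.2% of other genes and 29.5% of others with at least 20 H3K4me2 CPM. The H4 summits lay, in bp from the start with minus for upstream, at -58 in H4c4, -45 in H4c3, -4 in H4c12, 21 in H4c8, 27 in H4c9, 29 in H4c2, 155 in H4f16 and 300 in H4c6. The MUT peak at chr13:21753843-21754317 covers the divergent promoter of H2ac15 and H2bc15 printed above (7.00-fold). The 39 MUT peaks near histone genes had a median 4.96-fold enrichment, against 5.54-fold over the whole list.

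The strongest peaks recurred in both lists. At Hist2, a WT peak at chr3:96220974-96221632 of 19.8-fold (-log10 q of 64.5) and a MUT peak at chr3:96221075-96221566 with a -log10 q of 51.3 overlapped H2bc21 and lay within 1 kb of H2ac20 and H2ac21. At H1f3, a linker histone gene, a WT peak at chr13:23555005-23555269 was 6.41-fold and a MUT peak at chr13:23554893-23555755 was 15.7-fold (-log10 q of 13.5 and 47.0), with summits 80 and 73 bp past the start. H4c6, 3337 bp away from that WT peak, counts with it. The other WT peaks lay at chr11:58954197-58954565 in H2bu1-ps, beside H2aw and 4825 bp from H2bu2, and at chr3:96269746-96269969 in H2bc18, beside H3c13, each 5.81-fold. Near each the MUT list also had a peak, of 7.87-fold at chr11:58954210-58954647 and of 2.89-fold at chr3:96269764-96270116. The promoter of H1f3, printed above, holds the H1 box, CCAAT and TATAAA but no CACCTG. The 20 genes with no peak in any list included H2ac1, H2bc1, H2af-ps2 and the 5 unreadable genes. They also included well-marked genes, such as H2bc22, H3c14, H3c7 and H2bc14 at 72.1, 61.9, 61.2 and 60.9 H3K4me2 CPM.

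**Figure D3:**
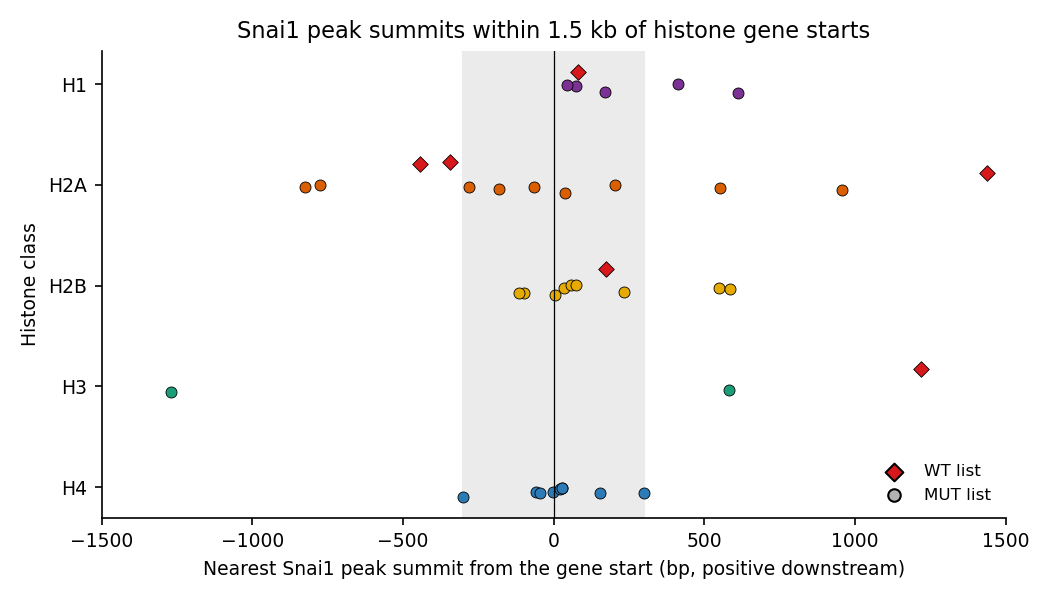
Distance from the gene start to the nearest Snai1 peak summit (bp, positive downstream) for histone genes by class, where it is at most 1.5 kb; diamonds are the WT list, circles the MUT list, and the shaded band spans 300 bp to each side. Of the H4 genes 8 have a MUT circle in the band, and of the H3 genes none.

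The next comparisons ask whether Snai1 with or without Lsd1 binding changed the marks, and replicate 1 has to be named first. In every construct and mark replicate 1 differed from replicates 2 and 3, with a variance of 9.49 to 17.7 times counting error, against 0.98 to 2.30 times between replicates 2 and 3. For H3K4me1 EV libraries 2 and 3 differed by less than the sampling noise (0.98 times) and were counted as 1 sample, so EV has n = 2 for that mark. At histone windows the variance of replicate 1 against the others was 4.55 to 14 times counting error in H3K4me2 and 3.7 to 18.4 times in H3K4me1. Between replicates 2 and 3 it was 1.24 to 4.11 and 0.788 to 1.55 times. The H3K4me2 histone median deviated from the mean of the 9 libraries by -0.07, -0.1 and -0.06 (log2) in replicate 1 of WT, MUT and EV. In replicates 2 and 3 it deviated by 0.09 and 0.22, -0.09 and -0.07, and 0.02 and 0.07. In H3K4me1 the deviation was 0.22, 0.26 and 0.35 in replicate 1 of WT, MUT and EV. It was 0.19 and 0.09 in WT replicates 2 and 3, against -0.24 and -0.23 in both MUT and EV. Other windows of at least 20 CPM deviated by -0.09 to 0.13 in H3K4me1. The sources give no batch. Depth was 8694515 to 18199945 counts per H3K4me2 library, 4042976 to 8813537 per H3K4me1 library and 2714255 to 3355479 per IgG library. Of the marker genes, 10 of 12 progenitor windows were higher in H3K4me2 than in IgG, and 10 of 10 windows of genes of other tissues were lower by TMM, and Kdm1a had 69.4 ± 11.7, 65.0 ± 1.23 and 66.1 ± 11.2 H3K4me2 CPM in WT, MUT and EV cells (SD, n = 3).

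**Figure D4:**
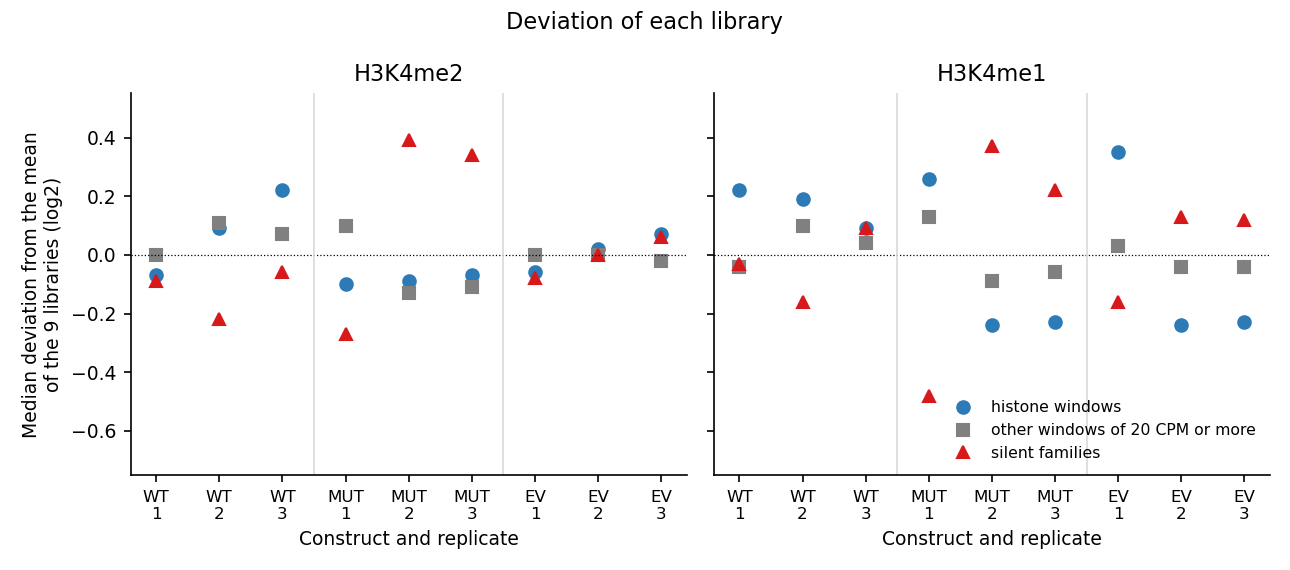
Median log2 deviation of each library from the mean of the 9 libraries of its mark, for readable histone windows (circles), other windows of at least 20 CPM (squares) and silent receptor families (triangles), by construct and replicate. In H3K4me1 the histone median is at -0.24 or -0.23 in replicates 2 and 3 of MUT and EV and above 0 in the other 5 libraries.

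No histone window passed the test in any comparison of the constructs, in either mark (edgeR quasi-likelihood test, adjusted p under 0.05; DESeq2 also called 0 histone windows in each). In H3K4me2, 0 of 66 tested histone windows were called for WT against EV, where 0.00388% of all windows were (1 window, or 5 with a replicate block), and 0 for MUT against EV and for WT against MUT, where 0 were. At an unadjusted p under 0.05 the counts were 0 for WT against EV, 8 for MUT against EV and 15 for WT against MUT, against 7.32%, 4.95% and 9.90% of all windows. In H3K4me1, 0 of 64 histone windows were called in each comparison and 0 of all windows, and at an unadjusted p under 0.05 the counts were 0, 0 and 1, against 2.88%, 1.61% and 5.24%.

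The histone windows nevertheless leaned one way. In H3K4me2, WT against MUT had a median log2 difference of 0.20 with 59 of 66 windows above 0, against -0.04 over all windows and 0.11 over windows of at least 20 CPM, of which 9331 of 12134 were above 0. MUT against EV had -0.10, with 59 of 66 below 0, against -0.04 over windows of at least 20 CPM, of which 7374 of 12134 were below 0. WT against EV had 0.09, with 52 of 66 above 0, against 0.06 and 8452 of 12134. The comparisons share libraries. The size depends on the scaling: WT against MUT had 0.11 by column totals and 0.47 by silent scaling. MUT against EV had -0.08 and -0.26, and WT against EV 0.02 and 0.22. The difference from the median of all windows was 0.23 to 0.24, -0.13 and 0.10 for these comparisons under TMM and both scalings. Scaling moves all windows nearly alike, so that difference could hardly change. The WT against EV median was 0.15 without WT replicate 1 and 0.03 without WT replicate 3. Silent receptor families had the other sign, with a median of -0.36 for WT against MUT, and their H3K4me2 median was 2.76 and 2.58 CPM in MUT replicates 2 and 3, against 1.46 to 2.02 CPM in the other 7 libraries. The part of that background in the lean was not tested. Within replicate 1 the WT and MUT histone medians differed by 0.05, with 40 of 64 readable windows above 0, and within replicates 2 and 3 by 0.27, with 57 of 64. Other chromosome 13 windows of at least 20 CPM had a like median within replicates 2 and 3, of 0.26 in H3K4me2, but -0.08 within replicate 1. The H3K4me2 histone median of MUT minus EV was -0.05 within replicate 1 and -0.11 within replicates 2 and 3. Other windows of at least 20 CPM had 0.09 and -0.11, so the lean within replicates 2 and 3 was no larger at histone windows. For WT minus EV the histone medians were 0.01 (36 of 64 above 0) and 0.13, against -0.0 and 0.09. In H3K4me1, WT against MUT had 0.24 (59 of 64 above 0; -0.01 over all windows), MUT against EV -0.16 (59 below 0) and WT against EV 0.07 (49 above 0), where of 14426 windows of at least 20 H3K4me1 CPM 8389 were above, 7520 below and 8084 above 0 in these comparisons. Within replicate 1 WT differed from MUT by -0.03 and within replicates 2 and 3 by 0.38, against -0.12 and 0.21 in other chromosome 13 windows of at least 20 CPM. Without MUT replicate 1, 2 or 3 the WT against MUT median was 0.42, 0.15 or 0.14, and that of MUT against EV -0.33, -0.08 or -0.04. The values against EV also rest on counting EV libraries 2 and 3 as 1 sample: with all libraries kept separate they were -0.05 for MUT and 0.18 for WT, and with a replicate block -0.08 and 0.15. Within replicate 1 MUT differed from EV by -0.13 and WT from EV by -0.17, and within replicates 2 and 3 by 0.02 and 0.42. The H3K4me1 comparisons with EV turned on EV replicate 1: without it the medians were 0.42 for WT against EV and 0.19 for MUT against EV, on a lone EV sample assumed to vary like the others. Neighbouring windows share reads, and with 1 window per run the H3K4me2 median of WT against MUT was also 0.20.

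**Figure D5:**
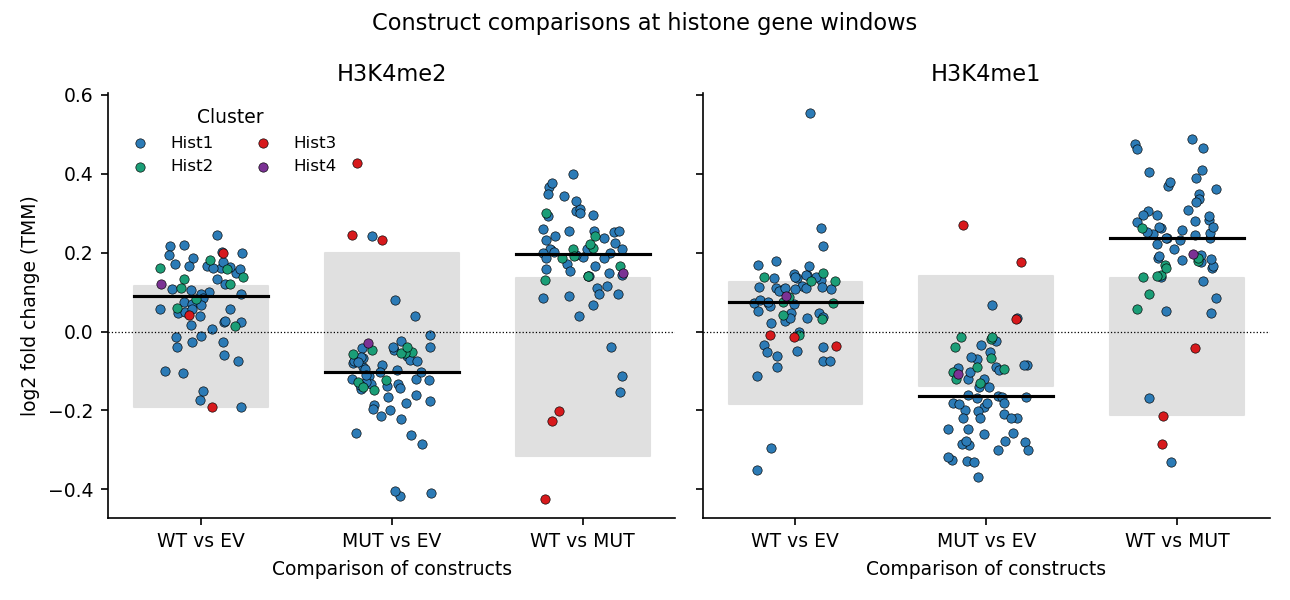
Log2 fold change of each readable histone window in the comparisons of constructs, for H3K4me2 (left) and H3K4me1 (right), coloured by cluster; black bars are medians over the windows and grey boxes the quartiles of all windows. In the H3K4me2 comparisons the 3 Hist3 windows (red) are above 0 for MUT vs EV and below 0 for WT vs MUT, opposite to most Hist1 windows.

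The H4 gene H4c9 had the smallest p in H3K4me2 for MUT against EV. It had 44.2, 44.6 and 42.0 CPM in MUT and 50.1, 54.9 and 62.0 CPM in WT libraries, against 51.5, 60.4 and 62.0 CPM in EV libraries. The MUT libraries lay below all others. The log2 difference was -0.41 ± 0.12 for MUT against EV (SE, edgeR adjusted p = 0.952, unadjusted 0.00356) and 0.35 ± 0.12 for WT against MUT (adjusted p = 0.503), so neither passed. H2bc11, the next H2B gene on the chromosome, had 54.0, 53.2 and 54.8 CPM in MUT against 62.8, 64.9 and 66.0 CPM in EV (-0.26 ± 0.11, edgeR adjusted p = 0.952). H4c9, H2bc11 and H2ac11 each have a MUT Snai1 peak within 5 kb, 7.03-fold over the start of H4c9, and no WT peak.

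H3c10 had the smallest p for WT against MUT. It had 60.3, 63.5 and 72.0 H3K4me2 CPM in WT and 53.2, 53.0 and 51.5 CPM in MUT, with EV at 59.1, 62.1 and 62.0 CPM. The WT libraries lay above the MUT libraries, at 0.31 ± 0.10 (edgeR adjusted p = 0.503), as they did for H2bc11 (0.33 ± 0.11) and H2ac13, which shares its reads with H3c10 (0.31 ± 0.11). In all, 20 of 64 readable windows had every WT library above every MUT library, against 2.88% of all windows, and 3 had every one below, against 6.33%. For MUT against EV, 15 windows were entirely below, against 1.95% of all, and 3 entirely above, against 4.92%. For WT against EV, 7 were entirely above and 1 below, against 6.23% and 6.71%. These windows are not separate observations, since neighbours such as H2ac13 and H3c10 share reads. The shares over all windows also include windows with little of the mark. Of other windows of at least 20 CPM, 76.8% had a mean difference above 0 for WT against MUT and 38.7% for MUT against EV. Their share without overlap of the libraries was not counted. In H3K4me1, 9 windows were entirely above and 1 below for WT against MUT, against 2.80% and 5.93%, 1 and 0 for WT against EV, against 4.16% and 6.63%, and 0 and 0 for MUT against EV, against 4.91% and 3.08%. Back in H3K4me2, the 3 windows with the smallest p for WT against EV after H1f3 were H2bc3, H3c8 and H3c7, at 0.18 to 0.22 (edgeR adjusted p of 0.769 to 0.802).

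The 3 Hist3 windows differed in sign from the other clusters, with medians of 0.24 for MUT against EV and -0.23 for WT against MUT. Of these, H2bu2 had only 9.15 ± 1.37 H3K4me2 CPM and was lower than IgG by TMM. The medians thus rest mostly on H2bu1-ps and H2aw, which lie side by side. Within replicates 2 and 3 their WT minus MUT median was -0.31, against 0.28 in other chromosome 11 windows of at least 20 CPM. H2bu1-ps, a pseudogene of an H2B gene, had 67.7, 93.1 and 89.1 H3K4me2 CPM in MUT and 66.7, 74.3 and 72.6 CPM in WT, against 66.5, 57.7 and 61.4 CPM in EV. Its level was high in MUT replicates 2 and 3 and not in replicate 1. H2aw, the H2A gene beside it, had 78.1, 82.7 and 77.3 CPM in MUT and 69.0, 71.1 and 66.8 CPM in WT, against 71.5, 63.7 and 65.6 CPM in EV. The log2 differences for MUT against EV were 0.43 ± 0.12 and 0.24 ± 0.09 (SE, edgeR adjusted p = 0.952 for each), and their windows overlap, so they are not separate observations. The WT and MUT Snai1 peaks described above lie in H2bu1-ps and beside H2aw. The MUT list also had a 6.78-fold peak over H2aw, with its summit 204 bp past the start, and a 6.42-fold peak over H2bu2. Without MUT replicate 1, H2bu1-ps passed at 0.52 (edgeR adjusted p = 0.026, range over the alternatives 0.026 to 1.0), and 6 windows passed for WT against MUT: H2bc21 at 0.39, H2bc11 at 0.36, H2bc13 and H3c10 at 0.35, H2bc6 at 0.28 and H2bu1-ps at -0.33 (edgeR adjusted p of 0.0268 to 0.0481). Of all windows 620 and 4289 then passed in these comparisons.

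H1f3, with Snai1 peaks at its start in both lists, had 91.2, 95.9 and 107 H3K4me2 CPM in WT and 81.1, 80.8 and 84.4 CPM in MUT, against 84.6, 89.4 and 83.1 CPM in EV. The WT libraries lay above the others, at 0.19 ± 0.10 over EV (edgeR adjusted p = 0.71), and MUT differed from EV by -0.06 ± 0.10. H2bc21, under the strongest peaks, had 117, 110 and 113 CPM in WT, 117, 87.8 and 89.1 CPM in MUT and 122, 105 and 99.9 CPM in EV, and the groups overlapped. Its WT minus EV difference was 0.06 ± 0.13. Windows with and without a MUT peak within 5 kb had like medians: in MUT against EV, -0.10 over 49 and -0.09 over 15 readable windows in H3K4me2, and -0.17 and -0.12 in H3K4me1.

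In H3K4me1 the 4 windows with the smallest p for WT against MUT were H2ac15 at 0.48 ± 0.21, H2bc6 at 0.46 ± 0.23, H2bc1 at 0.49 ± 0.25 and H4c4 at 0.29 ± 0.16 (SE, edgeR adjusted p of 0.946 to 0.988). For WT against EV it was H2bc1 at 0.55 ± 0.28, with 13.9, 19.1 and 18.3 CPM in WT against 13.7, 8.97 and 10.2 CPM in EV, then H2bc11, H1f6 and H4c9. For MUT against EV they were H2bu1-ps at 0.27 ± 0.17, H2ac15 at -0.37 ± 0.23, H2bc3 at -0.28 ± 0.20 and H2ac22 at -0.33 ± 0.25, all with an edgeR adjusted p of 1.0. No histone window had a mark-by-construct interaction in any of the 3 pairs of constructs (0 of 67 at an edgeR adjusted p under 0.05, as for 0 of 26008 windows, and 0 of 67 at an unadjusted p under 0.05, against 0.604%, 0.519% and 1.23% of all windows). The smallest unadjusted p values were those of H2bc1 for WT against EV, H4c9 for MUT against EV and H2ac1 for WT against MUT, and H4c8 was among the 4 smallest for MUT against EV and for WT against MUT, with H2bc3 and H2bc6 for MUT against EV.

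Genes that work with the replication-dependent histones were also marked. All 24 transcription and 3' processing factors, all 16 histone chaperones and all 30 replication genes listed were higher in H3K4me2 than in IgG, with medians of 1.96, 2.13 and 1.82. Examples are Npat at 2.36 ± 0.17, the chaperone Nasp at 2.14 ± 0.16 and the sliding clamp Pcna at 2.17 ± 0.15 (log2 ± SE, edgeR adjusted p of 2.62e-07). Of 17 replacement histone genes, which are expressed outside S phase or in germ cells, 10 were higher, such as H2az1 at 2.20 ± 0.16, and 6 lower. H3K4me2 exceeded H3K4me1 in 9 of 17 and fell short in 5 of 17 replacement genes, among them the oocyte H1 gene H1f8 at -2.48 ± 0.12, against 26 of 30 and 2 of 30 replication genes. For H3K4me2 in WT against MUT the medians were 0.14 for the factors, 0.14 for the chaperones, 0.06 for the replication genes and 0.01 for the replacement histones, beside 0.20 for the histone windows, and none of these genes passed the test.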

How the data were processed

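HPC7 cells with WT, MUT or EV virus were profiled for H3K4me2, H3K4me1 and Snai1, with IgG in WT cells. The deposited read counts per start-site window come from Subread alignments counted with featureCounts, per the submitters' processing notes, without versions. The integer score and summit offset of each peak are as deposited. For Snai1 the deposited peak lists give the fold enrichment (a ratio) and the -log10 q of each peak, with MACS2 named in those notes. The notes name GRCm38 and mm10 as builds. Whether technical libraries were pooled before peak calling is not given in the sources used here beyond there being 1 list per construct.

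Gene names and starts came from RefSeq (GRCm38.p6), which matched 25204 of 27095 rows (93.0%). Of the rows, 31 repeated an earlier one and 20 had no reads, and 27044 were kept. The design assumed windows of one length, but IgG counts fit windows that end with the gene better, so levels are also given per kb of a rebuilt window and over IgG. The layout is inferred. Downstream limits of 2000 to 5000 bp were tried, and the mean squared residual was 4424 at 4000 and 4420 at 5000 bp. The upstream extent was not varied, so values per kb rest on an assumed length.

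Counts were tested with edgeR 4.0.16 in R 4.3.3 (quasi-likelihood F-test, TMM factors, filterByExpr by group, two-sided, adjusted over all windows tested, at 0.05), on all 3 constructs of a mark, both marks together for the mark contrast, or WT and IgG. Levels are CPM on TMM-scaled library sizes. SE is the log2 fold divided by the root of F. The tests were checked on simulated counts with one spread for all windows and no difference of replicate 1. That check does not show what size of change could be found in these libraries. Library medians used log2(CPM + 0.5). Same-numbered WT and EV libraries, and MUT and EV libraries, deviated together from their group means, with every correlation from 0.124 to 0.577 over both marks. For WT and MUT the correlations were -0.215 to 0.248. A library correlated best with one of its own number in 12 of 18 comparisons in each mark. Replicate 1 stands apart in every group, which can give such correlations by itself. They therefore cannot decide whether the numbers pair the libraries, and the labels give no shared batch. The main fits have no replicate block, and fits with one are in the closing section. The labels do not say whether numbered replicates are separate cultures, so p-values measure the spread between these libraries. The count minimum for comparing non-overlapping libraries was a mean of 10. Silent families are the 1482 olfactory and vomeronasal receptor windows.

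Genes named are, per comparison, up to 5 members per direction past the threshold by log2 fold or, where fewer than 4 passed, the 4 with the smallest p; for levels, the 5 highest and lowest, the extremes of each class, the members outside Hist1 and the 3 testis genes; and members with peaks. H2bc21 in the construct comparison and the individual H4 summits were chosen after their values were seen. The members and gene lists were chosen with earlier results of these data known. A reading of the rule that adds 4 replacement H1 genes (73 windows), and the alternatives of the closing section, were also run.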

Additional observations from a re-analysis of the deposited data

How the results depend on the processing

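In the comparisons with IgG and between marks the total calls stayed within 1.5 times under every scaling, filter and test tried, but the lower calls did not: over IgG in H3K4me2 they went to 3 by size factors and DESeq2 and 0 by silent scaling, against 5, over IgG in H3K4me1 to 0 by silent scaling, against 2, and between the marks to 3 by silent scaling, against 6. The exception for the totals was counting windows that share reads once, which by construction leaves fewer windows: 28 of 29 called for H3K4me2 over IgG, 23 of 27 for H3K4me1 over IgG and 23 of 29 for H3K4me2 over H3K4me1. Of all windows 95.2%, 85.9% and 75.6% were called in the same fits. Leaving out 1 library gave 63 to 66, 52 to 58 and 53 to 56 calls for these comparisons, against 65, 60 and 54. Over IgG, 24397 to 25321 of all windows were then called in H3K4me2, of 26216 to 26246 tested. In H3K4me1 it was 20125 to 23299, of 26121 to 26173 tested. For the constructs the counts stayed at 0 under every alternative, except without MUT replicate 1 in H3K4me2. Then 1 window was called for MUT against EV (H2bu1-ps) and 6 for WT against MUT (H2bc13, H2bc6, H2bc11, H3c10 and H2bc21 higher, H2bu1-ps lower), where 620 and 4289 of all windows were called. The cause was not tested. Leaving out any library gave 0 to 1 calls for MUT against EV and 0 to 6 for WT against MUT in H3K4me2, and 0 in the other construct comparisons and interactions.

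With a replicate block the calls were 0 in all construct comparisons and interactions, 65 and 56 over IgG, and 55 between the marks, so no count of histone windows moved by over 1.5 times under the block. Of all windows, 24994 of 26313 and 21638 of 26166 were then called over IgG, and 20255 of 26008 between the marks. Among 25742 windows in H3K4me2, the block called 5 for WT against EV and 12 for WT against MUT. In H3K4me1 it called 6 of 25728 for WT against MUT. Counting readable windows alone, an alternative chosen after seeing the data, gave 64, 60 and 52 calls over IgG in H3K4me2, in H3K4me1 and between the marks. These were of 64 windows each, against 95.2%, 85.9% and 75.6% of all windows.

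Snai1 peak counts fell to 5 (WT) and 30 (MUT) of 69 genes at a -log10 q of at least 10. Of 25135 other genes, 1128 (WT) and 4518 (MUT) had a peak at that q. Within 1 kb the counts were 8 and 38 of 69 histone genes, against 2071 and 7135 of 25135 other genes. Of other genes with at least 20 H3K4me2 CPM, 8.3% (WT) and 33.6% (MUT) had a peak at that q. For histone genes of that level it was 5 and 29 of 58. Within 1 kb it was 15.6% and 53.8% of such other genes, against 8 and 37 of 58 histone genes.

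Scaling to silent families turned H2af-ps2, H2bc1, H1f6, H2ac1 and H2bu2 to 0.72, 0.78, 0.95, 1.28 and 1.79 over IgG in H3K4me2, H2bu2 to 0.91 in H3K4me1, and H4c3 and H2ac11 to 0.04 and 0.22 between the marks, and put the H4c8 interaction of WT with MUT at 0.0. Size factors put H2bu2 at 0.01 in edgeR and in DESeq2. Over the fits without 1 library, H2bc3 ranged from -0.31 to 0.07 for MUT against EV in H3K4me1, and the MUT against EV interactions of H2bc3 and H2bc6 from -0.10 to 0.29 and from -0.08 to 0.56, the signs turning without EV replicate 1 of H3K4me1. No Snai1 value had replicates, windows of near-identical genes could not be read, and counts limit small differences.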
